A study of Homo sapiens with 10 samples.

Results

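The BCL2 family decides whether a cell commits to the mitochondrial route of apoptosis, and 10 of its genes were followed here at the RNA level in a basal-like and a luminal breast cancer line exposed to the kinase inhibitor PKC412. The genes were picked out by symbol from a list drawn up with earlier results of these data known: the guardians BCL2, BCL2L1 and MCL1, the BH3-only genes BCL2L11, BMF, PMAIP1, BBC3 and BIK, and the pore formers BAX and BAK1. All 10 had a value in every sample among the 23426 gene symbols of the series, and all 10 were among the 16071 genes tested, those with a mean above 0.1 FPKM in at least 1 of the 4 groups.

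In this family, pore formers can oligomerise in the outer mitochondrial membrane and release cytochrome c, which lets APAF1 activate caspase-9. Guardians hold the pore formers and their activators in check by gripping a helix, the BH3 domain, in a surface groove. BH3-only proteins carry that helix and little else of the family fold, and they occupy the groove or engage the pore formers directly. In breast tissue, BCL2 is known as a gene that is active in estrogen receptor-positive luminal cells.

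Both lines are long established in culture: MDA-MB-468 has the basal, triple-negative type and ZR75-1 the luminal type of breast cancer. Each line received either the solvent DMSO (2 samples) or 1 µM PKC412, also known as midostaurin, a derivative of staurosporine that inhibits many kinases (3 samples), for 6 h before RNA was taken, so the series has 10 samples in 4 groups. The dose is that of the labels, and the study's text gives a lower one in places, so it is not settled. Each subtype was represented by a single line, so a difference between the lines cannot be told apart from a difference between subtypes. The values are FPKM, fragments scaled by transcript length and by mapped fragments, so levels can be set side by side between genes. This scaling does not take in the GC content of transcripts, which ran from 37.2% to 69.7% among the 10, so such comparisons are rough.

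The element that all 10 proteins share is short. Read from the principal coding transcripts of GENCODE release 29 on GRCh38, each of the 10 encoded exactly 1 stretch of leucine, any 3 residues, glycine or alanine, and aspartate, the core of the BH3 helix. The same pattern occurred somewhere in 24.8% of 19539 proteins, so it does not mark the family by itself. A longer form, which also asked for a hydrophobic residue 4 before the leucine and 2 after the aspartate, was met by all 10 and by 5.4% of the proteins. The coding DNA of 6 members whose RNA is described most closely below is shown 5′ to 3′ on the coding strand, in 36 bases from the earlier hydrophobic residue to the later one. The capitals mark the codons of the leucine, of the glycine or alanine, and of the aspartate:
BCL2: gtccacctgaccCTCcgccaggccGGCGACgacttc
BCL2L1: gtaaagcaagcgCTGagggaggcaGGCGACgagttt
BCL2L11: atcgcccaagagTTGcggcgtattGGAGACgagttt
PMAIP1: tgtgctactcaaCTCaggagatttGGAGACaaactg
BBC3: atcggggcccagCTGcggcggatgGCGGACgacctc
BIK: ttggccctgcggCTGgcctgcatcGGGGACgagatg

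These stretches lie within single coding exons, at chr18:63318355-63318390 on the minus strand for BCL2, chr20:31721928-31721963 on the minus strand for BCL2L1, chr2:111150091-111150126 on the plus strand for BCL2L11, chr18:59902661-59902696 on the plus strand for PMAIP1, chr19:47226585-47226620 on the minus strand for BBC3 and chr22:43127704-43127739 on the plus strand for BIK. In BBC3, as in BMF, the small residue before the aspartate is alanine, and in the other 8 members it is glycine. All positions are on GRCh38, while the deposited values were made on hg19, so symbols and not coordinates join them.

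The FPKM of a sample summed to between 599228 and 835069, and read depth is unknown, so precision rests on the spread between samples. Nothing in the labels says whether replicates were separate cultures, so p-values measure only the spread between these samples, which may be technical. The 10 basal markers summed to 2469 to 2710 FPKM in MDA-MB-468, against 23.6 to 35.6 in ZR75-1. KRT5 (919 to 1091) and KRT17 (1083 to 1523) were the largest terms in MDA-MB-468. CDH3 ran the other way, at 9.56 to 11.6 FPKM in MDA-MB-468 and 17.9 to 25.2 in ZR75-1. In DMSO 7 of the 10 were higher in MDA-MB-468 and 1 was lower at a limma adjusted p under 0.05, beside 42.4% of all genes. The 10 luminal markers summed to 1980 to 3612 in MDA-MB-468 and to 10491 to 15669 in ZR75-1, and PGR was listed at 0 in all MDA-MB-468 samples. KRT8 and KRT18 were the largest luminal terms in MDA-MB-468. The 10 markers of other cell types summed to 1.67 to 3.11 FPKM in MDA-MB-468 and to 4.78 to 15.5 in the other line. Among them PTPRC, CD3E and HBB were at or near 0. Of the 4 that could be tested, PECAM1 rose after PKC412 in MDA-MB-468 (log2 fold change 0.31, limma adjusted p = 0.0404) and COL1A1 in ZR75-1 (log2 fold change 1.49, limma adjusted p = 0.0181), and their part in the results was not tested. Samples also differed in how FPKM ran with the GC content of transcripts. The slope of a sample's deviation from its line mean, in log2 units per 10 percentage points of GC, was 0.373 and 0.0573 in the DMSO and -0.287, -0.024 and -0.119 in the PKC412 samples of MDA-MB-468. It was 0.314 and -0.192 in the DMSO and -0.107, 0.342 and -0.356 in the PKC412 samples of ZR75-1. In MDA-MB-468 the slope and the treatment therefore ran together. The fits were for that reason repeated on FPKM adjusted per sample for GC content and transcript length, an alternative chosen after seeing the data and called the GC adjustment here.

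The levels in untreated cells were compared first. The order of the means in DMSO was the same in both lines down to the sixth gene: BAX, BCL2L1, MCL1, BAK1, BIK and BBC3. BAX stood clear of all the others, while BCL2L1 and MCL1 overlapped in MDA-MB-468. Of the 10 members BCL2 separated the lines most. The line difference was tested with limma on log2(FPKM + 1), with Benjamini-Hochberg adjustment over all genes tested. The limma log2 differences and fold changes below are of FPKM + 1, while values given as n-fold are ratios of mean FPKM, so they need not match. In DMSO, 5 of the 10 members differed at an adjusted p under 0.05, beside 42.4% of all genes tested, so the share of members was near that of genes in general. Every sample of one line lay apart from every sample of the other for 8 of the 10, beside 69.6% of all genes. The median difference of the members, MDA-MB-468 minus ZR75-1, was -0.27 on the log2 scale, against 0.11 for all genes.

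BCL2, the founding guardian, stood at 0.214 and 0.561 FPKM in the DMSO samples of MDA-MB-468 and at 3.39 and 4.74 in those of ZR75-1. Both basal samples were far below both luminal ones. The mean FPKM was 10.5-fold lower in MDA-MB-468. The log2 difference of FPKM + 1, which is smaller at such low levels, was -1.87 (standard error, SE, 0.391, limma adjusted p = 0.0053). Over the alternatives run it ranged from -3.18 to -1.67, and the call held in every one. In PKC412 the 3 samples of MDA-MB-468 had 0.463, 0.211 and 0.343 FPKM and those of ZR75-1 had 5.92, 2.90 and 9.0, again without overlap. The mean FPKM was 17.5-fold lower, and the log2 difference of FPKM + 1 was -2.28 (limma adjusted p = 0.000433). BCL2 made up 0.316% to 0.786% of the summed guardian FPKM in the MDA-MB-468 samples and 3.82% to 10.3% in those of ZR75-1.

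BBC3, which encodes the BH3-only protein PUMA, was also lower in MDA-MB-468. Its FPKM in DMSO was 3.67 and 2.92 in MDA-MB-468 and 10.4 and 8.72 in ZR75-1. Here too the lines were apart, by -1.30 on the log2 scale (SE 0.195, limma adjusted p = 0.000911), and the call was kept in every alternative. In PKC412 the difference was 0.03 (95% interval -0.33 to 0.40, limma adjusted p = 0.875), and the samples of the lines overlapped. With the GC adjustment that difference was 0.45 (limma adjusted p = 0.00155).

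PMAIP1, which encodes NOXA, a BH3-only protein that binds MCL1, ran the other way. In DMSO it had 1.93 and 2.72 FPKM in MDA-MB-468 and 0.350 and 1.17 in ZR75-1, without overlap (log2 difference 0.95, SE 0.316, limma adjusted p = 0.0419). In PKC412 the samples of MDA-MB-468 had 6.27, 3.71 and 4.08 and those of ZR75-1 had 1.03, 0.691 and 1.51. The lowest of the former was above the highest of the latter, with a log2 difference of 1.45 (SE 0.258, limma adjusted p = 0.00165).

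The other calls in DMSO were BCL2L1, which was lower in MDA-MB-468 by -0.64 on the log2 scale (SE 0.162, limma adjusted p = 0.0127), and BAK1, which was higher by 0.40 (SE 0.139, limma adjusted p = 0.0487). The call of BCL2L1 was lost without either DMSO sample of MDA-MB-468 and without DMSO sample 2 of ZR75-1. When each of the 10 samples was left out in turn, BAK1 kept its call in 2 of the fits, without PKC412 sample 2 or 3 of ZR75-1. PMAIP1 kept it in 4, without these, without PKC412 sample 1 of MDA-MB-468 and without DMSO sample 2 of ZR75-1. In PKC412 the lines differed for 4 of the 10 members, beside 58.6% of all genes, namely BCL2, BCL2L1, PMAIP1 and BIK. The samples did not overlap for 5 members, beside 64.4% of all genes.

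**Figure D1:**
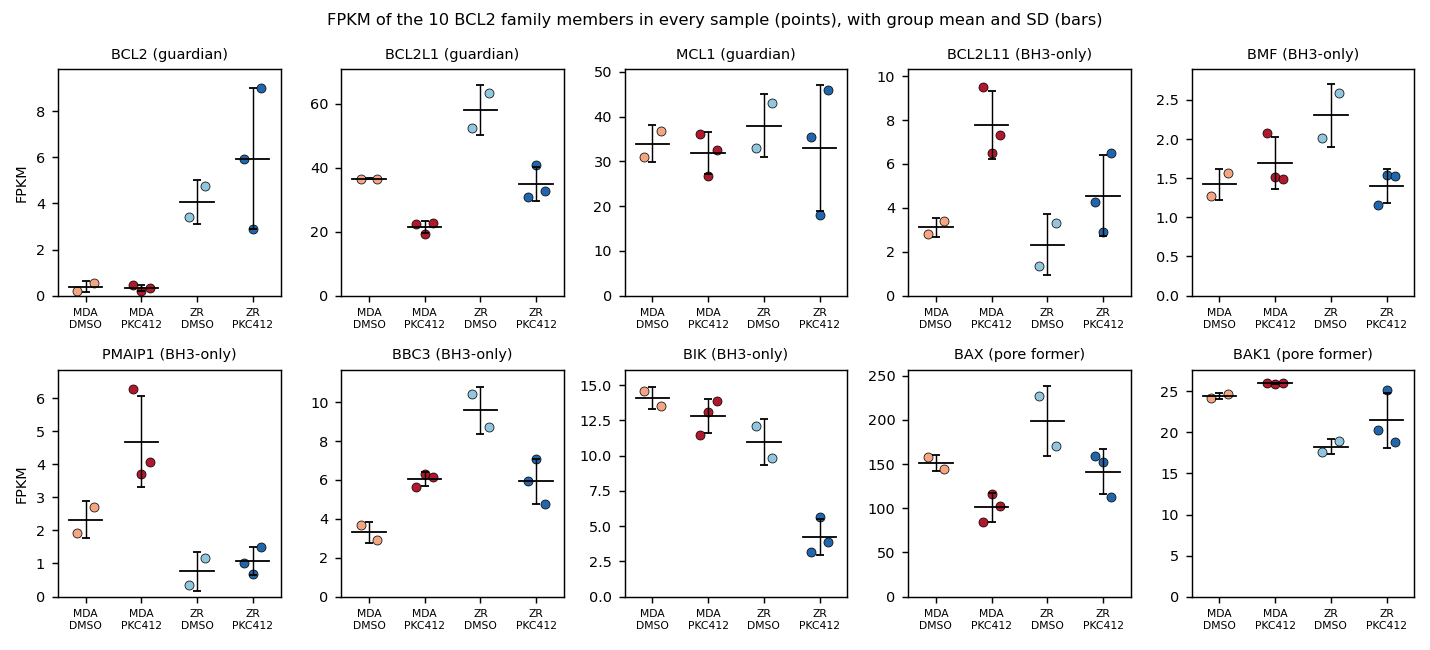
FPKM of each of the 10 members (vertical axis, linear, from 0) in the 2 DMSO and 3 PKC412 samples of MDA-MB-468 (MDA, red) and ZR75-1 (ZR, blue); points are samples, the long bar is the group mean and the whiskers are 1 SD. BCL2 is near 0 in all samples of MDA-MB-468, BCL2L1 is lower after PKC412 in both lines without overlap, BBC3 is higher after PKC412 in MDA-MB-468 and lower in ZR75-1, and BIK is at 3.17 to 5.66 in the 3 PKC412 samples of ZR75-1, below all the others.

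The effect of PKC412 was then compared within each line, as PKC412 minus DMSO. BCL2L1 was at lower values in both lines. Of the BH3-only genes, BCL2L11, PMAIP1 and BBC3 were at higher values in MDA-MB-468. In ZR75-1 BIK, BBC3 and BMF were at lower values, and only BIK passed, in a borderline call. BCL2L11 and PMAIP1 had positive log2 fold changes in ZR75-1 too (0.75 and 0.26), with overlapping samples. Their effects differed between the lines by 0.33 and 0.50, which did not pass (limma adjusted p = 0.951 for both). With limma, 0 of the 10 members passed an adjusted p under 0.05 in MDA-MB-468, beside 1.26% of all genes tested, while 5 had an unadjusted p under 0.05, beside 16.4% of all genes. In ZR75-1, 1 of the 10 passed, beside 0.946%, and 5 had an unadjusted p under 0.05, beside 11.2%. The PKC412 samples lay wholly apart from the DMSO samples for 6 members in MDA-MB-468, 4 above and 2 below, beside 55.9% of all genes, with 39.6% above and 16.3% below. In ZR75-1 they did so for 5, beside 21.7% of all genes, and all 5 lay below, beside 6.98% of all genes that lay below and 14.8% that lay above. The median log2 fold change of the members was 0.02 in MDA-MB-468, against 0.11 for all genes, and -0.37 in ZR75-1, against 0.07. By the ratio of mean FPKM, 0 of the 10 reached a 3-fold change in either line, beside 7.21% of all genes in MDA-MB-468 and 4.09% of those in ZR75-1.

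With the adjustment for GC content and length, 3 members passed in MDA-MB-468 (BBC3, BCL2L1 and BCL2L11), beside 3.61% of all genes, and 3 in ZR75-1 (BCL2L1, BIK and BMF), beside 2.82%. For the effect averaged over both lines 5 passed (BCL2L1, BCL2L11, MCL1, BAX and BBC3), beside 6.87% of all genes. Between the lines 6 passed in DMSO, beside 55.3%, and 9 in PKC412, beside 65.6%. In MDA-MB-468 this adjustment can also take away an effect of PKC412 that runs along GC content, and these cannot be told apart. In DMSO the adjusted line difference of BAK1 no longer passed (0.25, limma adjusted p = 0.0529), while BMF (-0.56, adjusted p = 0.00559) and BAX (-0.56, adjusted p = 0.00466) did. In PKC412 BAX (-0.49, adjusted p = 0.00274), BAK1 (0.27, adjusted p = 0.0141), BCL2L11 (0.35, adjusted p = 0.023), MCL1 (-0.42, adjusted p = 0.0206) and BBC3 passed in limma in addition to the 4 named above.

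**Figure D2:**
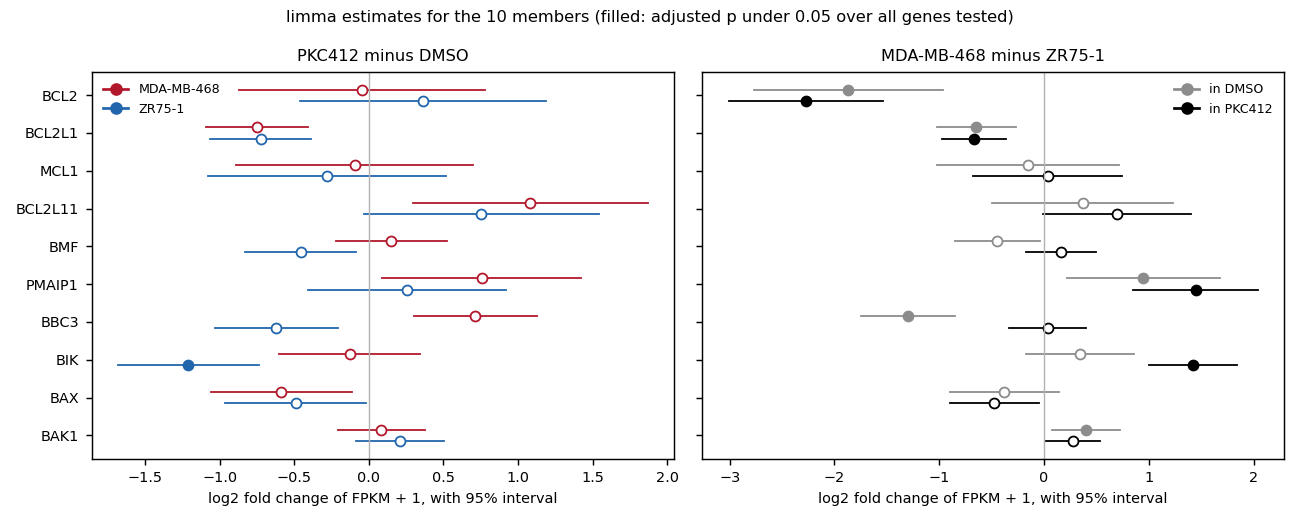
limma log2 fold changes of FPKM + 1 (horizontal axes) for the 10 members with 95% intervals, PKC412 minus DMSO in each line on the left and MDA-MB-468 minus ZR75-1 in each treatment on the right; filled points passed an adjusted p under 0.05 over all 16071 genes. On the left only BIK in ZR75-1 is filled, at -1.21, and the intervals of BBC3 in the lines lie on opposite sides of 0.

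BCL2L1, the guardian gene whose main product is BCL-XL, lay at lower values after PKC412 in both lines. Its FPKM in MDA-MB-468 was 36.5 and 36.6 in DMSO and 22.3, 19.3 and 22.7 in PKC412. In ZR75-1 it was 52.5 and 63.5 in DMSO and 30.8, 40.8 and 32.7 in PKC412. Every PKC412 sample lay below every DMSO sample of its line, by 1.71-fold and 1.67-fold in the means. Neither line passed alone, with log2 fold changes of -0.75 (SE 0.148, limma adjusted p = 0.0608) and -0.73 (SE 0.148, limma adjusted p = 0.0894). Without PKC412 sample 2 of ZR75-1 both lines passed (adjusted p = 0.0377 and 0.0336). Their effects differed by -0.02, with a 95% interval of -0.51 to 0.46. Averaged over both lines, BCL2L1 fell by 0.74 on the log2 scale (SE 0.105, limma adjusted p = 0.0164), and it was the 1 member of 10 to pass in that comparison, beside 1.74% of all genes. That call was lost without DMSO sample 1 or 2 or PKC412 sample 1 or 3 of MDA-MB-468 (adjusted p from 0.0535 to 0.0876). The GC-adjusted log2 fold changes were -0.75 in MDA-MB-468 (limma adjusted p = 0.0115) and -0.86 in ZR75-1 (limma adjusted p = 0.00705). BCL2L1 shares exon sequence with the antisense gene ABALON, and whether counting used strand is not given in the sources used here. The BCL2L1 symbol does not separate the long product from the short, pro-apoptotic one.

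MCL1 encodes a short-lived guardian. It had 31.0 and 36.9 FPKM in DMSO and 36.2, 26.8 and 32.6 in PKC412 in MDA-MB-468. In ZR75-1 it had 33.0 and 43.0 in DMSO and 35.4, 18 and 45.9 in PKC412. In neither line were the treatments apart, and the log2 fold changes were -0.09 (95% interval -0.89 to 0.70) and -0.28 (95% interval -1.08 to 0.52). The widest spread was between PKC412 samples 2 and 3 of ZR75-1, which also had the highest and the lowest GC slope of that line. The MCL1 transcript is 45.1% GC, and a link between the spread and GC content was not tested. After the GC adjustment the treatments lay wholly apart in both lines, at 44.1 and 40.1 against 26.8, 27.3 and 27.9 FPKM in MDA-MB-468 and at 49.2 and 36.8 against 31.8, 23.8 and 30.1 in ZR75-1. The adjusted log2 fold changes, -0.60 (limma adjusted p = 0.0758) and -0.57 (limma adjusted p = 0.101), did not pass in either line, and the effect averaged over both lines was -0.59 (limma adjusted p = 0.0182) in place of -0.19 (adjusted p = 0.606). BCL2 itself overlapped between treatments within each line, and its log2 fold changes were -0.04 (95% interval -0.87 to 0.78) in MDA-MB-468 and 0.36 (95% interval -0.46 to 1.19) in ZR75-1.

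Among the BH3-only genes, BCL2L11, which encodes BIM, a binder of all guardians whose gene is a known FOXO target, stood at 2.81 and 3.40 FPKM in DMSO and 9.49, 6.50 and 7.30 in PKC412 in MDA-MB-468. The lowest PKC412 sample was above the highest DMSO sample, and the mean was 2.50-fold higher. The log2 fold change of 1.08 (SE 0.341) did not pass (limma adjusted p = 0.216). In ZR75-1 it had 1.33 and 3.31 FPKM in DMSO and 4.25, 2.89 and 6.52 in PKC412, which overlapped (log2 fold change 0.75, limma adjusted p = 0.464). After the GC adjustment, the values in MDA-MB-468 were 4.0 and 3.74 in DMSO and 6.87, 6.76 and 6.19 in PKC412, and the smaller log2 fold change of 0.64 (SE 0.122) passed (limma adjusted p = 0.0298). In ZR75-1 the adjusted samples no longer overlapped, at 1.99 and 2.90 against 3.88, 3.81 and 4.14 (log2 fold change 0.53, limma adjusted p = 0.0663). The effect averaged over both lines was 0.92 (limma adjusted p = 0.117) and, GC-adjusted, 0.59 (limma adjusted p = 0.00783). BCL2L11 overlaps exons of MIR4435-2HG on the opposite strand, with a longest shared stretch of 727 bases.

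PMAIP1, whose values in every sample are given above, had a log2 fold change of 0.76 (SE 0.289, limma adjusted p = 0.274) in MDA-MB-468, where the treatments did not overlap, and of 0.26 (limma adjusted p = 0.807) in ZR75-1, where they did. It has the lowest transcript GC content of the 10, at 37.2%, and its GC-adjusted log2 fold change in MDA-MB-468 was 0.31 (limma adjusted p = 0.249).

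BBC3 lay apart in opposite directions. In MDA-MB-468 its FPKM was 3.67 and 2.92 in DMSO and 5.62, 6.32 and 6.15 in PKC412, with every PKC412 sample above. In ZR75-1 it was 10.4 and 8.72 in DMSO and 5.94, 7.08 and 4.76 in PKC412, with every PKC412 sample below. The log2 fold changes were 0.71 (SE 0.178, limma adjusted p = 0.13) and -0.62 (SE 0.178, limma adjusted p = 0.246). The difference between the lines, 1.33 (SE 0.252), did not pass (limma adjusted p = 0.108). In that comparison 0 of the 10 members passed, beside 0.268% of all genes, and 3 (BBC3, BIK and BMF) had an unadjusted p under 0.05, beside 7.05% of all genes. The differences of all 5 BH3-only members were above 0, with a median of 0.61 against 0.04 for all genes. Of the 3 BH3-only genes listed outside the members (BID, BAD and HRK), 1 was above 0, with a median of -0.02. The GC-adjusted differences of BCL2L11 and PMAIP1 were 0.11 and 0.04. Under the GC adjustment the BBC3 samples of each group drew together. The BBC3 difference was then 1.36 (SE 0.126, limma adjusted p = 0.00287), and BBC3 was the 1 member of 10 to pass, beside 1.31% of all genes. With the replicate number as a block added to this fit, that call was lost, and 0 of all genes passed. The BBC3 effect averaged over both lines was 0.05 (limma adjusted p = 0.806) and, GC-adjusted, 0.29 (limma adjusted p = 0.0361). The adjusted FPKM were 2.73 and 3.01 in DMSO and 6.66, 6.43 and 6.64 in PKC412 in MDA-MB-468, and 8.16 and 8.96 in DMSO and 5.83, 6.63 and 6.45 in PKC412 in ZR75-1. The BBC3 transcript has the highest GC content of the 10, at 69.7%, and an exon overlaps the microRNA gene MIR3191 on the same strand, listed at a mean of 21.3 FPKM, so its level is uncertain.

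BIK encodes a BH3-only protein of the endoplasmic reticulum and had the highest mean of the 5 BH3-only genes in DMSO in both lines, though in ZR75-1 its samples overlapped those of BBC3. Its FPKM in ZR75-1 was 12.1 and 9.80 in DMSO and 3.17, 5.66 and 3.89 in PKC412. The treated samples were wholly below, 2.58-fold in the means, and BIK fell by 1.21 on the log2 scale (SE 0.204, limma adjusted p = 0.0422). In MDA-MB-468 it was 14.6 and 13.5 in DMSO and 11.5, 13.1 and 13.8 in PKC412, which overlapped (log2 fold change -0.13, 95% interval -0.60 to 0.34). The effects differed by 1.08 (SE 0.289), and that did not pass (limma adjusted p = 0.33). The call in ZR75-1 is a borderline one: it held only without PKC412 sample 2 of ZR75-1 (adjusted p = 0.00939) and was lost without any of the other 9 samples, at adjusted p up to 0.311. It was also lost with no filter on low FPKM (adjusted p = 0.0583), with median-ratio scaling (adjusted p = 0.0861) and in a fit of ZR75-1 alone (adjusted p = 0.713). It passed with the GC adjustment (log2 fold change -1.09, limma adjusted p = 0.0129). In PKC412 the lines differed by 1.42 (SE 0.183, limma adjusted p = 0.000261), with BIK higher in MDA-MB-468, and that call held in every alternative.

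BMF, which encodes a BH3-only protein that binds dynein light chains, was the least abundant of the 5 in both groups of MDA-MB-468. It had 1.28 and 1.56 FPKM in DMSO and 2.08, 1.52 and 1.49 in PKC412 in MDA-MB-468, which overlapped. In ZR75-1 it had 2.02 and 2.58 in DMSO and 1.15, 1.54 and 1.53 in PKC412, with every treated sample below (log2 fold change -0.46, limma adjusted p = 0.368). The GC-adjusted log2 fold change in ZR75-1 was -0.63 (limma adjusted p = 0.0272). BMF overlaps exons of BMF-AS1 on the opposite strand, with a longest shared stretch of 284 bases.

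The pore formers differed from each other in level. BAX was the most abundant of the 10 in every group. In MDA-MB-468 it had 158 and 145 FPKM in DMSO and 84.0, 116 and 103 in PKC412, and in ZR75-1 it had 227 and 170 in DMSO and 159, 153 and 112 in PKC412. All treated samples lay below the untreated ones of their line, but neither line passed, with log2 fold changes of -0.59 (limma adjusted p = 0.252) and -0.49 (limma adjusted p = 0.432). Averaged over the lines the change was -0.54 (limma adjusted p = 0.123), and with the GC adjustment it was -0.36 (limma adjusted p = 0.0361). BAK1 was nearly level in MDA-MB-468, with 24.2 and 24.7 FPKM in DMSO and 26.0, 25.9 and 26.1 in PKC412, a log2 fold change of 0.09 (95% interval -0.21 to 0.38). In ZR75-1 it had 17.7 and 18.9 in DMSO and 20.3, 25.2 and 18.9 in PKC412, which overlapped (log2 fold change 0.21, 95% interval -0.08 to 0.50).

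The members were also set against each other within samples, as the summed FPKM of the 5 BH3-only genes over that of the 3 guardians. This ratio is a description of RNA levels and carries no test. In MDA-MB-468 it was 0.359 and 0.326 in DMSO and 0.593, 0.673 and 0.591 in PKC412. All treated samples were above the untreated ones, with means of 0.342 ± 0.0233 (SD, n = 2) and 0.619 ± 0.047 (SD, n = 3). In ZR75-1 the ratio was 0.295 and 0.230 in DMSO and 0.216, 0.289 and 0.208 in PKC412, which overlapped, with means of 0.263 ± 0.0458 (SD, n = 2) and 0.238 ± 0.045 (SD, n = 3). Both sums entered: in MDA-MB-468 the BH3-only sum was 24.3 and 24.1 in DMSO and 34.9, 31.2 and 32.8 in PKC412, and the guardian sum was 67.8 and 74.0 in DMSO and 59.0, 46.3 and 55.6 in PKC412. In ZR75-1 both sums were lower in the treated samples, at 15.5 to 18.2 against 25.6 to 26.2 for the BH3-only genes and 61.7 to 87.6 against 88.9 to 111 for the guardians. Without BIK the mean ratio went from 0.143 to 0.377 in MDA-MB-468 and from 0.15 to 0.178 in ZR75-1. The GC-adjusted ratio in MDA-MB-468 was 0.291 and 0.304 in DMSO and 0.690, 0.654 and 0.654 in PKC412. In ZR75-1 it was 0.214 and 0.237 in DMSO and 0.218, 0.276 and 0.266 in PKC412, which overlapped. The separation in MDA-MB-468 depends on the genes that are summed. With BID, BAD and HRK added to the BH3-only sum and BCL2L2, BCL2A1 and BCL2L10 to the guardian sum, a choice made after seeing the data, the ratio in MDA-MB-468 was 2.79 and 2.10 in DMSO and 2.32, 3.34 and 2.53 in PKC412. The treatments then overlapped, as they did in ZR75-1, at 1.66 and 1.12 against 1.59, 1.94 and 1.02. In bulk RNA, fewer cells that express a gene and less RNA per cell cannot be told apart.

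**Figure D3:**
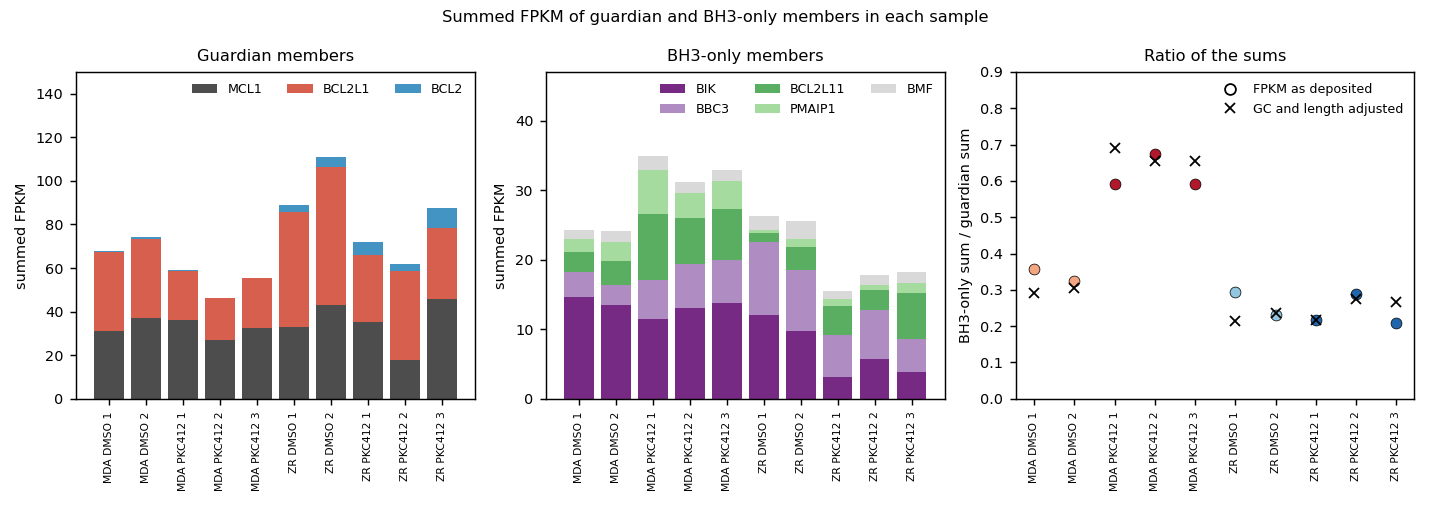
Summed FPKM of the 3 guardians (left) and of the 5 BH3-only genes (middle) in each of the 10 samples, stacked by gene, and the ratio of the BH3-only sum to the guardian sum (right), as deposited (circles) and after adjustment for GC content and length (crosses). The 3 PKC412 samples of MDA-MB-468 have ratios of 0.591 to 0.673, above all the other samples, whose highest is 0.359; BCL2 is visible in the stacks of ZR75-1 and hardly in those of MDA-MB-468.

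The make-up of these sums differed by line and treatment. BIK gave 56.0% to 60.1% of the BH3-only FPKM in the DMSO samples of MDA-MB-468 and 32.8% to 42.1% in the PKC412 samples. In ZR75-1 its share was 38.3% to 46.1% in DMSO and 20.4% to 31.7% in PKC412. BCL2L11 gave 11.6% to 14.1% in DMSO and 20.9% to 27.2% in PKC412 in MDA-MB-468, and 5.09% to 12.9% and 16.2% to 35.8% in ZR75-1. BCL2L1 gave 49.5% to 53.9% of the guardian FPKM in DMSO and 37.9% to 41.6% in PKC412 in MDA-MB-468. None of these ranges overlapped between the treatments of a line. The shares of BBC3, PMAIP1 and MCL1 in MDA-MB-468 and of BCL2 in ZR75-1 lay apart as well. A share also moves with the other genes of its sum: the FPKM of BIK in MDA-MB-468 and of BCL2L11 in ZR75-1 overlapped between treatments. The BCL2L1 share in ZR75-1, 57.1% to 59.0% in DMSO and 37.3% to 66.2% in PKC412, did overlap.

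The rest of the family was taken from a list of 13 further genes, of which 12 were tested and BCL2L15 was too low. In MDA-MB-468, 1 of the 12 rose and 0 fell, beside 1.26% of all genes that passed. There 1 had an unadjusted p under 0.05 in limma, beside 16.4% of all genes. In ZR75-1, 0 passed, beside 0.946%, and 0 had an unadjusted p under 0.05, beside 11.2%. For the difference in effect between the lines 0 passed, beside 0.268%, and 1 had an unadjusted p under 0.05, beside 7.05%. The median log2 fold changes were 0.16 in MDA-MB-468 and 0.06 in ZR75-1, near the 0.11 and 0.07 of all genes. The 1 gene that passed was BCL2L14, a weakly expressed relative with an unsettled role. It had 0.695 and 0.742 FPKM in DMSO and 1.51, 1.24 and 1.46 in PKC412 in MDA-MB-468. The samples did not overlap (log2 fold change 0.48, SE 0.0724, limma adjusted p = 0.0232), and when samples were left out in turn the call held only without PKC412 sample 2 of MDA-MB-468 and without PKC412 sample 2 or 3 of ZR75-1. The BH3-only genes BID and BAD were more abundant than any of the 5 BH3-only members, with 51.3 to 66.3 FPKM for BID and 27.5 to 116 for BAD over the 10 samples. The pore former BOK was between 17.9 and 27.0. The guardians BCL2A1 and BCL2L10 were under 1 FPKM in every sample. HRK was low too, at 0.301 to 0.859 in MDA-MB-468 and 0 to 0.0552 in ZR75-1 (line difference in DMSO 0.82, limma adjusted p = 0.00112). Between the lines, 3 of the 12 passed in DMSO, HRK among them, beside 42.4% of all genes. In PKC412 5 passed, beside 58.6%.

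Downstream of the mitochondrion, a list of 17 genes held 1 that rose in ZR75-1 and 0 that fell in either line. In MDA-MB-468, 0 passed and 1 had an unadjusted p under 0.05 in limma, beside 16.4% of all genes. Of all genes tested, 1.26% passed in MDA-MB-468, against 0.946% in ZR75-1. The list had a median log2 fold change of 0.37 in MDA-MB-468, where that of all genes was 0.11, and of 0.10 in ZR75-1, where it was 0.07. The gene that rose in ZR75-1 was CASP9, the initiator caspase that APAF1 activates. Its FPKM in ZR75-1 was 4.20 and 5.34 in DMSO and 29.7, 35.5 and 28.9 in PKC412. The treated samples were 6.58-fold higher in the mean and far from the untreated ones, with a log2 fold change of 2.49 (SE 0.154, limma adjusted p = 0.000299). In MDA-MB-468 it had 3.91 and 4.55 in DMSO and 6.53, 5.42 and 6.25 in PKC412 (log2 fold change 0.43, limma adjusted p = 0.254). The effects differed between the lines by -2.06 (SE 0.217, limma adjusted p = 0.012), a call that was lost without DMSO sample 2 or PKC412 sample 3 of MDA-MB-468, at adjusted p up to 0.0618. CASP9 overlaps exons of CELA2B on the opposite strand, with a longest shared stretch of 106 bases, and CELA2B was listed at a mean of 0.0174 FPKM. The CASP9 symbol does not show whether the full-length transcript or another isoform gave these values.

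**Figure D4:**
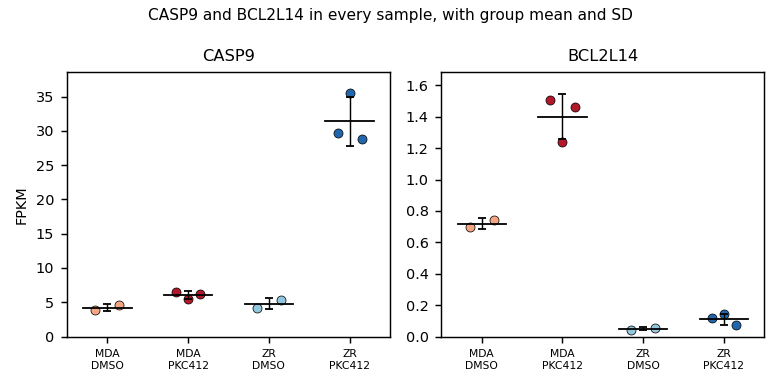
FPKM (vertical axis, linear, from 0) of CASP9 and BCL2L14 in each of the 10 samples, with the group mean (long bar) and 1 SD (whiskers). CASP9 is at 28.9 to 35.5 in the PKC412 samples of ZR75-1 and at most 6.53 in all the others, and BCL2L14 is at 1.24 to 1.51 in the PKC412 samples of MDA-MB-468 and at most 0.742 in all the others.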

How the data were processed

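RNA was sequenced on a HiSeq2000 after TruSeq library preparation, with 2 DMSO and 3 PKC412 samples per line. The authors deposited FPKM values per gene symbol, 1 file per sample, from an in-house pipeline; the submitters' processing notes name CASAVA 1.82, TopHat2 and hg19, and the annotation is not given in the sources used here. FPKM hold no counts, so no count model was used. The methods describe triplicates; only 2 DMSO samples per line were analysed here.

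The 10 members were found by symbol. All genes were fitted with limma 3.58.1 (R 4.3.3) on log2(FPKM + 1), with 1 mean per group, eBayes with a trend and Benjamini-Hochberg adjustment at 0.05, over the 16071 genes whose mean FPKM exceeded 0.1 in 1 group or more. The pseudocount understates changes of low genes. Samples were grouped by their labels. Python 3.11.15, numpy 2.4.6, pandas 2.3.3 and matplotlib 3.10.9 were used for the rest. The fits were tested on simulated data with independent noise and no GC trend, so that test does not bear on the GC slopes of these samples. For the adjustment added after seeing the data, each sample's log2 deviations from its line mean (from the mean of all samples for line differences) were regressed on GC content and log2 length, each as a polynomial of degree 3, over matched genes above 1 FPKM in every sample entering that mean, and the fit was subtracted from all genes; 88.1% of symbols had a match in GENCODE release 29 by symbol, and the others took the median.

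The rule for named genes took the members, the other family genes, and from the other lists those that passed limma in a PKC412 comparison, at most 8 a list by the size of the fold change. The members and lists were chosen with earlier results of these data known. Alternatives were other pseudocounts, filters and scaling, eBayes without the trend, each line alone, a replicate block, each sample left out, and the adjustment above. Some listed genes, and the lists that turn on them, are not reported here.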

Additional observations from a re-analysis of the deposited data

Results flagged for a closer look

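For BBC3 the PKC412 samples lay above the DMSO samples in MDA-MB-468 and below them in ZR75-1, and the log2 fold changes differed by 1.33 between the lines. In limma this difference had an adjusted p of 0.108, and over the samples left out in turn it ranged from 1.21 to 1.46 with adjusted p from 0.068 to 0.357. Adjusted for GC content and length it was 1.36 (adjusted p = 0.00287), and with the replicate number as a block 1.20 (adjusted p = 0.894). With both, the call was lost, and 0 of all genes passed.

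For CASP9 the limma test of the difference itself passed, at -2.06 (adjusted p = 0.012), where the effect was 2.49 in ZR75-1 against 0.43 in the other line. With samples left out in turn it ranged from -2.20 to -1.91, and 8 of the 10 fits kept the call. With the adjustment for GC content and length it was -2.02 (adjusted p = 0.0108), and with the replicate number as a block -2.13 (adjusted p = 0.894). Under that block the effect in ZR75-1, 2.54, also lost its call (adjusted p = 0.478). The block left 0 of all genes called in these comparisons, so a call lost under it does not set CASP9 or BBC3 apart.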

How the results depend on the processing

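Over the alternatives run, the line differences of BCL2 in both treatments, of BBC3 in DMSO and of BCL2L1, PMAIP1 and BIK in PKC412 kept their direction and their call. The PKC412 effects rest on 2 DMSO samples a line, and read depth is unknown. The cause of the changes below was not tested.

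Members that passed in ZR75-1 numbered 0 in place of 1 with no filter on low FPKM, with median-ratio scaling and with that line fitted alone. With the GC adjustment, chosen after seeing the data, 3 members passed in MDA-MB-468 in place of 0, 3 in ZR75-1, 1 in place of 0 for the difference between lines, 5 in place of 1 for the mean effect and 9 in place of 4 for the lines in PKC412. The BH3-only to guardian ratio of MDA-MB-468 became 0.297 in DMSO and 0.666 in PKC412. Over all listed BH3-only and guardian genes, also chosen after seeing the data, the ratio was 2.45 and 2.73 in MDA-MB-468 and 1.39 and 1.52 in ZR75-1. This adjustment moved the median of all genes from 0.109 to 0.00677 in MDA-MB-468 and from 0.195 to 0.0659 for the lines in PKC412. With single samples left out, members that passed ranged from 0 to 1 in MDA-MB-468, from 0 to 2 in ZR75-1, from 0 to 2 for the mean effect, from 2 to 5 for the lines in DMSO and from 4 to 6 for the lines in PKC412, and members at 3-fold in ZR75-1 ranged from 0 to 2 (2 without DMSO sample 2, 1 without PKC412 sample 2).

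The replicate numbers were not taken to pair the samples: deviations of same-numbered DMSO and PKC412 samples correlated at -0.181 and -0.126 in MDA-MB-468 and at -0.0196 and -0.393 in ZR75-1. Between the lines they correlated at 0.287 in DMSO, the same value for both numbers since 2 samples mirror each other, and at -0.0201, 0.213 and 0.0432 in PKC412. With the replicate number as a block, 0 members passed in limma for each PKC412 comparison, 3 for the lines in DMSO, without PMAIP1 (adjusted p = 0.0913) and BAK1 (adjusted p = 0.0741), and 4 for the lines in PKC412. BIK in ZR75-1 then had an adjusted p of 1 and the mean effect of BCL2L1 one of 0.665. The block left 0 of all genes called in each PKC412 comparison, with 703, 589, 445 and 829 genes at an unadjusted p under 0.05. With both the GC adjustment and the replicate block, 0 members passed in MDA-MB-468, in ZR75-1, for the difference (BBC3 included) and for the mean effect, with 7 for the lines in DMSO and 8 for the lines in PKC412.

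Some values took the opposite sign. With the GC adjustment, then also with the replicate block, the values were -0.0471 and -0.0863 for the mean effect of BCL2, and 0.16 and 0.11 for BIK in MDA-MB-468. For the difference between lines they were 0.11 and 0.0403 for BCL2L1, -0.0354 and -0.0081 for MCL1, 0.0954 and 0.0514 for BAX, and 0.0341 and 0.0075 for BAK1. For MCL1 between the lines in PKC412 they were -0.42 and -0.42, which passed (adjusted p = 0.0206 and 0.0121). With median-ratio scaling, MCL1 and BBC3 between the lines in PKC412 were -0.15 and -0.13, the mean effect of BBC3 -0.0597 and BAK1 in MDA-MB-468 -0.034. With single samples left out, BCL2 ranged from -0.23 to 0.14 in MDA-MB-468, and MCL1 from -0.21 to 0.0262 in MDA-MB-468, -0.56 to 0.0936 in ZR75-1, -0.19 to 0.47 for the difference, -0.34 to 0.0331 between the lines in DMSO and -0.34 to 0.31 in PKC412. BCL2L11 ranged from -0.11 to 0.77 for the difference and -0.0736 to 0.81 between the lines in DMSO. BCL2L1 and BAX ranged from -0.16 to 0.11 and -0.30 to 0.11 for the difference, PMAIP1 from -0.0853 to 0.60 in ZR75-1, BBC3 from -0.0155 to 0.11 for the mean effect and -0.0925 to 0.15 between the lines in PKC412, and CASP9 from -0.28 to 0.0074 between the lines in DMSO.

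Of all genes, 202 passed in MDA-MB-468, against 116 with a pseudocount of 0.1, 81 with the line alone, 579 with the GC adjustment, 3 with it and the block, and 65 to 324 with single samples left out. In ZR75-1 the counts were 152, against 12 with the line alone, 452 and 3 with the GC adjustment without and with the block, and 59 to 183. The difference gave 43, against 27 with a pseudocount of 0.1, 134 with no filter, 68 without the trend, 210 and 0 with the GC adjustment without and with the block, and 16 to 64. The mean effect gave 279, against 1103 and 0 with the GC adjustment without and with the block, and 91 to 681. Genes at 3-fold numbered 1078 in MDA-MB-468 (646 to 2136 with single samples left out) and 596 in ZR75-1 (490 to 2197).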
